A study of Mus musculus with 8 samples.

Results

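The tumour suppressor p53, encoded by Trp53, was followed together with 9 genes that it is known to activate, Mdm2, Ccng1, Btg2, Plk2, Perp, Trp53inp1, Zmat3, Sesn1 and Gdf15. These 10 genes were taken by symbol from a count table of 24907 genes, and all 10 were found. They were measured by RNA sequencing in ASZ001, a mouse basal cell carcinoma line. In NS cells the shRNA was non-silencing, and in knockdown cells it was directed against TGFbR1, the type I receptor for TGF-beta. Each kind of cell received either DMSO or Dox and 4OHT, usual abbreviations of doxycycline and 4-hydroxytamoxifen, and the Dox and 4OHT libraries are the ones that carry the label RasV12, an activated Ras. The 4 groups, NS under DMSO, knockdown under DMSO, NS under Dox and 4OHT and knockdown under Dox and 4OHT, held 2 libraries each. Doses, times and whether the lines were clones or pools are not stated in the labels. The labels do not say whether the DMSO libraries carried an uninduced RasV12 construct. As no library had the drugs without RasV12, the 2 cannot be told apart, and "Ras response" here means the change with both.

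The p53 protein is a transcription factor that is kept at a low level by MDM2, a ubiquitin ligase whose gene p53 itself activates, so that the pair forms a feedback loop. It is controlled mostly through the stability and modification of the protein, which RNA sequencing does not measure. After DNA damage or oncogene stress it raises genes of cell cycle arrest, cell death, repair and metabolism. Activated Ras is a classical source of such stress, and in epidermis the related factor p63 uses some of the same sites and targets.

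The repeat unit of a p53 response element is a consensus decamer, which is its own reverse complement and is thus searched on both strands at once. Of the 10 genes 7 had at least 1 promoter window in the RefSeq table (GRCm38.p6, 250 bases before to 50 after a gene start). The decamer was present without mismatch in 4 of these 7 genes, which were Trp53, Mdm2, Ccng1 and Sesn1, against 9.55% of the 27025 genes of the table. Of 35 other known p53 targets with a window, 9 had it (25.7%). The decamer was absent from the windows of Btg2, Gdf15 and Plk2, a statement on these letters only. The 4 stretches are shown because calls differed among genes that share the decamer near a start site. Mdm2 rose with Ras in both kinds of cells, Trp53 was called higher in NS cells alone and Ccng1 was not called. Sesn1 was lower with Ras in both kinds of cells, calls that were lost with DESeq2. Whether a single decamer acts at these sites was not tested. Capitals mark the decamer, each stretch reads 5′ to 3′ along the gene, and positions are counted back from the start site.
Trp53, chr11:69580259-69580318, plus strand, decamer from 75 bases before the start: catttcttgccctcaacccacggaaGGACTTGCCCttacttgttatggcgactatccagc
Mdm2, chr10:117710910-117710969, minus strand, decamer from 186 bases before the start: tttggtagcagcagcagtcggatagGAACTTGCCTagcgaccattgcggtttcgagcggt
Ccng1, chr11:40755437-40755496, minus strand, decamer from 185 bases before the start: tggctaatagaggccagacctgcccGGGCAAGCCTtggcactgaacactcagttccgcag
Sesn1, chr10:41887241-41887300, plus strand, decamer from 173 bases before the second of its listed starts: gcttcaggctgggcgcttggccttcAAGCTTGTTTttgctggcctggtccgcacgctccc

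Library totals ran from 12724604.5 to 16233379 counts, and 12538 genes were tested. Values are CPM (counts scaled to library size and composition), and calls are at an adjusted p of 0.05. The 2 libraries of a group correlated at 0.996 to 0.997 in log CPM, over genes that are not independent of each other. The spread between them exceeded counting noise, with a chi-square per degree of freedom of 2.35 and 2.68 in NS DMSO and knockdown Dox-4OHT, and of 8.29 and 13.3 in knockdown DMSO and NS Dox-4OHT. That statistic includes the ribosomal RNA entry Rn45s. It was at 3811 and 13520 CPM in knockdown DMSO and 9001 and 27490 CPM in NS Dox-4OHT. The other groups had 8240 and 5508 CPM (NS DMSO) and 25190 and 26240 CPM (knockdown Dox-4OHT). The statistic was not computed without Rn45s, so its contrast between groups does not describe genes in general. Whether the 2 libraries of a group stem from different cultures is not stated, and p-values therefore measure only their spread, which may be technical. Tgfbr1, the targeted gene, was at 77.1 to 104 CPM in the 4 NS libraries and 8.08 to 10.2 CPM in the 4 knockdown libraries. The keratins of basal keratinocytes were abundant, with Krt5 at 5520.0 to 13280.0 CPM. Of the Hedgehog targets that mark basal cell carcinoma, Ptch1 was at 11.2 to 21.1 CPM and Gli1 at 0.521 to 3.23 CPM, and Hhip did not pass the filter on low counts. The 5 fibroblast markers summed to 1.11 to 4.39 CPM. The 8 immune, endothelial and pigment markers summed to 22.4 to 37.2 CPM, nearly all of it Pecam1, while the endothelial cadherin gene Cdh5 was at 0.0781 CPM or less. The ribosomal RNA entry Rn45s took 0.387% to 1.36% of counts under DMSO and 0.916% to 2.76% with Dox-4OHT, and without it no call among the 10 genes changed.

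**Figure D1:**
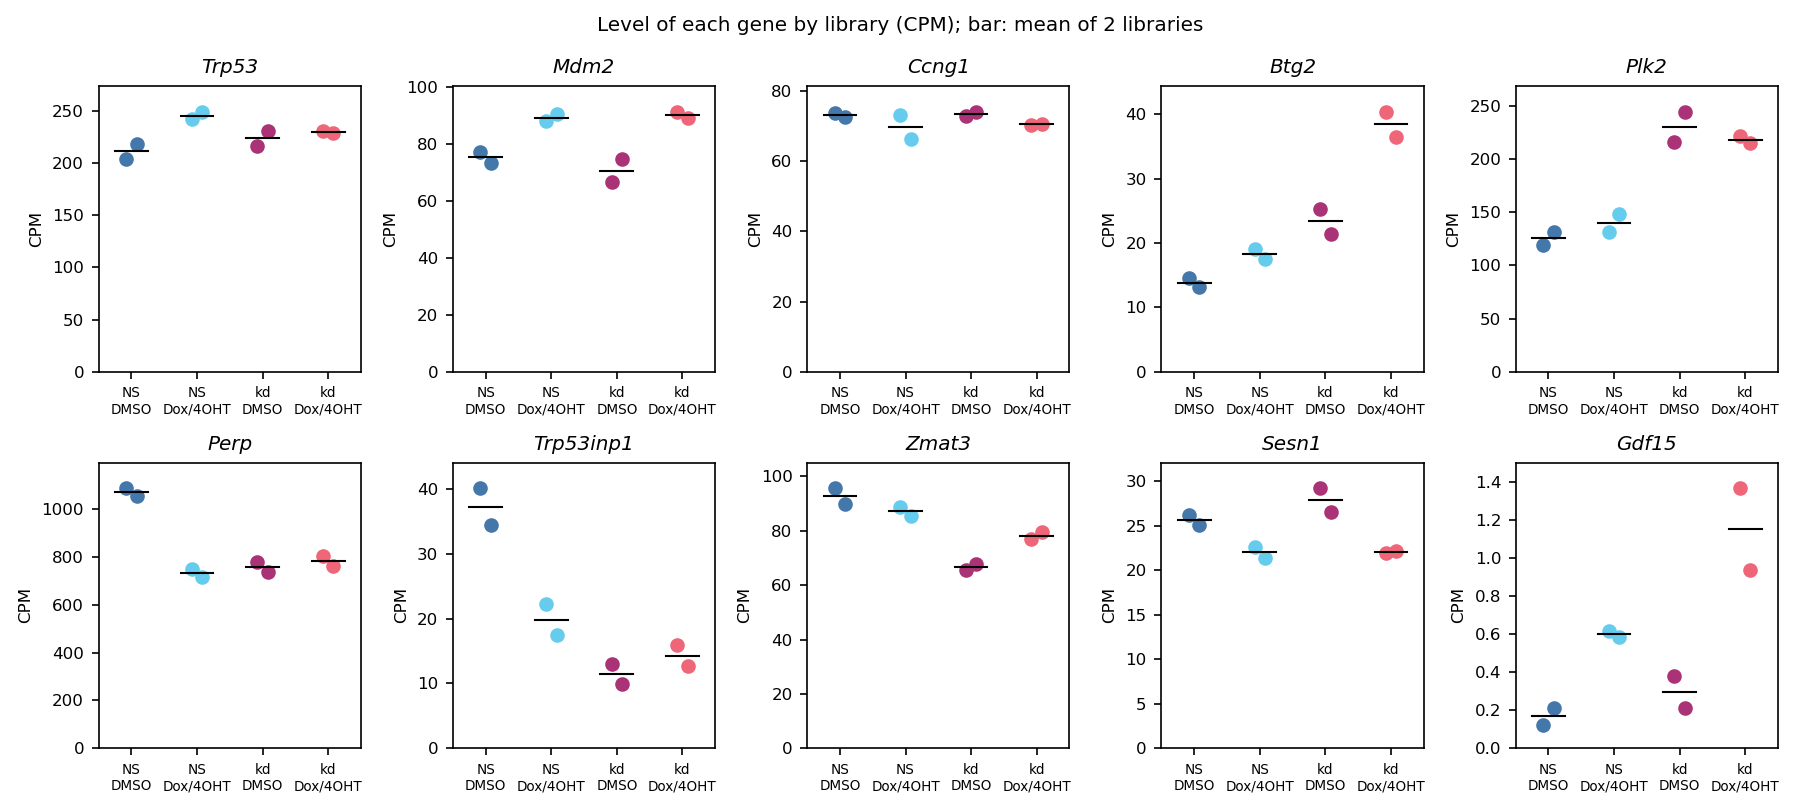
Level of each of the 10 genes in CPM on axes that start at 0, with 1 point per library, 2 libraries per group (NS or knockdown, kd) and a bar at their mean. Btg2 rises across the 4 groups to 38.5 CPM, Perp and Trp53inp1 stand apart in the NS DMSO libraries, and Ccng1 stays between 66.4 and 73.9 CPM.

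Trp53 itself was abundant and varied little. Per kilobase of the deposited gene length, which allows a comparison between genes, it was the second highest of the 10 in every group, at 114 to 132 CPM per kb, after Perp at 387 to 565 and before Plk2 at 45.0 to 82.6. Gdf15 was the lowest in every group, at 0.110 to 0.748 CPM per kb. In NS cells Trp53 was at 204 and 219 CPM under DMSO and 242 and 249 CPM with Dox-4OHT. Knockdown cells had 216 and 231 CPM under DMSO and 231 and 229 CPM with Dox-4OHT. In bulk RNA, fewer cells of a type and less RNA per cell cannot be told apart, here and below. Both NS Dox-4OHT libraries lay above all 6 others, among which NS DMSO lay below knockdown Dox-4OHT and knockdown DMSO overlapped both. Its Ras response was 0.22 ± 0.04 (log2, SE) in NS cells (adjusted p = 8.97e-05 by edgeR, as for every adjusted p below unless another tool is named). In knockdown cells the change was 0.04 (95% interval -0.04 to 0.12, adjusted p = 0.481). The 2 responses differed by -0.18 ± 0.06 (adjusted p = 0.0162). That call ended with DESeq2 (adjusted p = 0.133) and without NS DMSO replicate 1 (-0.14, 0.117), knockdown DMSO replicate 2 (-0.13, 0.113) or knockdown Dox-4OHT replicate 2 (-0.17, 0.053).

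The knockdown effect on Trp53 was 0.08 under DMSO (95% interval -0.00 to 0.17, adjusted p = 0.083) and -0.09 ± 0.04 with Dox-4OHT (adjusted p = 0.0458). The first passed without NS DMSO replicate 2 (0.14, 0.0213), knockdown DMSO replicate 1 (0.14, 0.0117) or either NS Dox-4OHT library (0.048 and 0.0474) and without the filter on low counts (0.036). The second was lost without NS DMSO replicate 1 (0.0529) or 2 (0.0539), as well as without NS Dox-4OHT replicate 1 (0.0503) or 2 (0.243), or knockdown Dox-4OHT replicate 1 (0.107) or 2 (0.162). It was also lost with RLE scaling (0.0734) and with DESeq2 (0.236). Trp53 has a processed pseudogene, Trp53-ps, and how shared reads were assigned is not stated in the labels. Of 10292 genes with at least 5 CPM, those whose profile over the 8 libraries lay closest to that of Trp53 were Fip1l1, Med1 and Gm38431, with root mean square differences of 0.0266, 0.0296 and 0.0316 in log2.

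Of the 2 feedback genes, Mdm2 rose with Ras in both kinds of cells and Ccng1 was called in no comparison. Mdm2, the ubiquitin ligase gene of the loop, was at 77.2 and 73.2 CPM in DMSO-treated NS cells and 66.5 and 74.6 CPM in DMSO-treated knockdown cells. With Dox-4OHT it was at 87.9 and 90.3 CPM in NS and 91.1 and 89.1 CPM in knockdown cells, so that all 4 treated libraries were above all 4 DMSO libraries. It rose by 0.24 ± 0.05 among NS cells (adjusted p = 0.000593) and by 0.35 ± 0.05 among knockdown cells (adjusted p = 1e-05), a rise of 1.18-fold and 1.28-fold. These responses differed by 0.11 (95% interval -0.05 to 0.27, adjusted p = 0.287). Knockdown and NS cells differed by -0.09 under DMSO (95% interval -0.21 to 0.02, adjusted p = 0.155) and by 0.02 with Dox-4OHT (-0.09 to 0.13, adjusted p = 0.804). Without knockdown DMSO replicate 2 the DMSO difference passed (-0.17, adjusted p = 0.0262). The gene with the closest profile was Plekhg3, at a root mean square difference of 0.0403 in log2.

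Ccng1 encodes cyclin G1, which recruits a phosphatase to MDM2. It was at 73.8 and 72.6 CPM in DMSO-treated NS cells and 72.9 and 73.9 CPM in DMSO-treated knockdown cells, and with Dox-4OHT at 73.2 and 66.4 CPM in NS and 70.4 and 70.4 CPM in knockdown cells. The highest group mean was 1.05 times the lowest, the smallest such ratio of the 10 genes. Within the comparisons made, the libraries of its groups overlapped except in the Ras response of knockdown cells. Its 95% intervals were -0.18 to 0.04 for the Ras response in NS cells, -0.17 to 0.05 for that in knockdown cells, -0.11 to 0.11 for the knockdown under DMSO and -0.10 to 0.13 with Dox-4OHT, all in log2.

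Btg2 and Plk2 are antiproliferative or stress-responsive genes that growth factor signals also induce. Btg2, which encodes a cofactor of mRNA deadenylation that restrains the G1 to S transition, was at 14.6 and 13.1 CPM in DMSO-treated NS cells and 19.1 and 17.6 CPM with Dox-4OHT. The knockdown libraries held 25.4 and 21.4 CPM under DMSO and 40.4 and 36.6 CPM with Dox-4OHT. The 4 groups did not overlap and their means spanned 2.78-fold. Btg2 rose with Ras by 0.40 ± 0.11 among NS cells (adjusted p = 0.00391) and by 0.73 ± 0.09 among knockdown cells (adjusted p = 1.47e-07). It was higher in knockdown than NS cells by 0.75 ± 0.10 under DMSO (adjusted p = 4.53e-07) and by 1.08 ± 0.09 with Dox-4OHT (adjusted p = 5.97e-11). The difference of the Ras responses, 0.33 ± 0.14, missed the threshold (adjusted p = 0.064). It passed once knockdown DMSO replicate 1 (0.44, 0.0212) or knockdown Dox-4OHT replicate 2 (0.39, 0.0422) was left out, and with the replicate number as a block (0.31, 0.0451).

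Plk2, a polo-like kinase of the G1 phase and of the stress response, was higher in knockdown cells. It was at 119 and 132 CPM in DMSO-treated NS cells and 131 and 149 CPM with Dox-4OHT. Its knockdown values were 216 and 244 CPM under DMSO and 221 and 215 CPM with Dox-4OHT, with every knockdown library above every NS library. The rise with the knockdown was 0.88 ± 0.08 under DMSO (adjusted p = 5.15e-05) and 0.64 ± 0.08 with Dox-4OHT (adjusted p = 0.00034). Its Ras responses were 0.16 in NS cells (95% interval -0.04 to 0.37, adjusted p = 0.182) and -0.08 in knockdown cells (-0.26 to 0.11, adjusted p = 0.515). The first passed with the block (0.0124), without the filter on low counts (0.00256) and without either knockdown DMSO library (0.048 and 0.0491), which are outside that comparison. The difference of the Ras responses was -0.24 (95% interval -0.52 to 0.04, adjusted p = 0.162) and passed with the block (0.00952), without the filter (0.000952) and without knockdown DMSO replicate 1 (-0.34, 0.013) or NS Dox-4OHT replicate 1 (-0.34, 0.0423).

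Perp and Trp53inp1 are tied to cell death. Perp encodes a membrane protein that p53 uses in apoptosis and that also builds desmosomes in stratified epithelium, where p63 drives it. It was at 1085 and 1055 CPM in DMSO-treated NS cells, and between 716 and 802 CPM in the other 6 libraries. The 6 were 750 and 716 CPM in Dox-4OHT-treated NS cells, 779 and 734 CPM in DMSO-treated knockdown cells and 802 and 761 CPM in Dox-4OHT-treated knockdown cells. The 2 NS DMSO libraries thus stood above all others, and they enter both of the falls that follow. The same libraries had the highest sum of the 11 basal keratinocyte and carcinoma markers, 24700 and 25100 CPM against 11600 to 16300 CPM in the other 6, and its part in these changes was not tested. Most of that sum was Krt5 and Krt14, with means of 13240 and 8462 CPM in NS DMSO. Krt15, Itgb4 and Gli1 were also highest there. Itga6 and Cdh1 were highest in knockdown cells with Dox-4OHT. Epcam and Ptch1 were lowest in NS DMSO, at means of 177 CPM against 253 to 341 CPM and 11.5 CPM against 13.1 to 20.9 CPM. Perp fell with Ras in NS cells (-0.55 ± 0.03, adjusted p = 1.43e-12) and was lower in DMSO-treated knockdown cells (-0.50 ± 0.03, adjusted p = 2.69e-12). In knockdown cells its Ras response was 0.05 (95% interval -0.02 to 0.12, adjusted p = 0.308). The responses differed by 0.59 ± 0.05 (adjusted p = 6.59e-10). With Dox-4OHT the knockdown cells had slightly more Perp (0.09 ± 0.03, adjusted p = 0.0234), a call lost with DESeq2 (0.0628) and without NS Dox-4OHT replicate 2 (0.179) or knockdown Dox-4OHT replicate 1 (0.295).

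Trp53inp1 encodes a nuclear stress protein that promotes p53 phosphorylation and acts in autophagy. It was at 40.1 and 34.4 CPM in DMSO-treated NS cells and 22.2 and 17.4 CPM with Dox-4OHT. The corresponding knockdown values were 13.0 and 9.98 CPM under DMSO and 15.9 and 12.7 CPM with Dox-4OHT. As with Perp, the NS DMSO libraries were the highest of the 8. The basal marker sum, mostly Krt5 and Krt14, was also highest there. The lowest group mean of Trp53inp1 was that of the knockdown cells under DMSO. Their marker sum, at 16300 and 15500 CPM, was instead above the 11600 to 12300 CPM of the Dox-4OHT groups. Trp53inp1 fell with Ras in NS cells (-0.92 ± 0.14, adjusted p = 0.000271), whereas the change in knockdown cells was 0.33 (95% interval -0.07 to 0.74, adjusted p = 0.193). The latter passed with the block (0.0233) and without the filter on low counts (0.0191). The difference between the responses was 1.25 ± 0.23 (adjusted p = 0.00135). It was lower in knockdown cells under DMSO, with an effect of -1.71 ± 0.15 (adjusted p = 1.93e-06), at 0.306 times the NS level. With Dox-4OHT the effect was -0.46 ± 0.16 (adjusted p = 0.0326) and was lost without NS Dox-4OHT replicate 1 (-0.28, 0.182) or knockdown Dox-4OHT replicate 2 (-0.32, 0.139).

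Zmat3 encodes an RNA-binding zinc finger protein that acts on splicing and mRNA stability downstream of p53. It was at 95.5 and 89.8 CPM in DMSO-treated NS cells and 88.8 and 85.4 CPM with Dox-4OHT. Knockdown values were 65.7 and 67.6 CPM under DMSO and 76.8 and 79.4 CPM with Dox-4OHT. The 4 groups did not overlap, and both knockdown groups were below both NS groups. The NS DMSO libraries were again the highest, as for the basal marker sum, mostly Krt5 and Krt14, whose part was not tested. The likeness ended there, as knockdown cells under DMSO had the least Zmat3 but a higher marker sum than either Dox-4OHT group. The knockdown effect on Zmat3 was -0.48 ± 0.05 under DMSO (adjusted p = 6.6e-09) and -0.16 ± 0.05 with Dox-4OHT (adjusted p = 0.00938). The latter call was lost with DESeq2 (0.11) and without NS Dox-4OHT replicate 1 (0.0807) or knockdown Dox-4OHT replicate 1 (0.0922). Zmat3 rose with Ras in knockdown cells (0.23 ± 0.05, adjusted p = 0.00121), against -0.09 in NS cells (95% interval -0.19 to 0.01, adjusted p = 0.141). The responses differed by 0.32 ± 0.07 (adjusted p = 0.00091).

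Sesn1, a sestrin that limits mTORC1 signalling, was lower with Dox-4OHT in both kinds of cells. It was at 26.2 and 25.1 CPM in DMSO-treated NS cells and 29.2 and 26.6 CPM in DMSO-treated knockdown cells, against 22.6 and 21.4 CPM in NS and 22.0 and 22.1 CPM in knockdown cells with Dox-4OHT. All 4 treated libraries were below all 4 DMSO libraries. The fall was -0.22 ± 0.08 among NS cells (adjusted p = 0.0337) and -0.34 ± 0.08 among knockdown cells (adjusted p = 0.00203). The call in NS cells rests on every library of that comparison, as it was lost without NS DMSO replicate 1 (0.198) or 2 (0.0591) and without NS Dox-4OHT replicate 1 (0.0547) or 2 (0.188). With DESeq2 both were lost (0.215 and 0.051). The knockdown effect was 0.12 under DMSO (95% interval -0.05 to 0.28, adjusted p = 0.204) and 0.00 with Dox-4OHT (-0.18 to 0.18, adjusted p = 0.982). The gene body of Sesn1 overlaps that of the annotated gene 9930024M15Rik on the same strand. Where exons overlap, reads of the 2 cannot be told apart, but whether exons overlap was not examined.

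Gdf15, a secreted stress hormone of the TGF-beta superfamily, was near the limit of detection. It passed the filter on low counts through the knockdown libraries with Dox-4OHT alone, so a difference involving that group was built into its being tested. It had 2.5 and 3 counts in DMSO-treated NS cells, 7.5 and 8.5 with Dox-4OHT, 5 and 3 in DMSO-treated knockdown cells and 21 and 12.5 with Dox-4OHT. In CPM these were 0.124 and 0.213, 0.618 and 0.586, 0.382 and 0.211, and 1.37 and 0.938. All treated libraries were above all DMSO libraries. From the group sums, the ratio of treated to DMSO cells was 3.30 in NS cells (95% interval 1.12 to 9.43, counting error only) and 4.07 in knockdown cells (1.87 to 10.3). The fit gave log2 changes of 1.80 ± 0.67 (adjusted p = 0.031) in NS and 1.97 ± 0.51 (adjusted p = 0.00323) in knockdown cells. Because of the filter, neither the ratio nor the p-value of knockdown cells is evidence of a rise there. In NS cells the call was lost without any one of its 4 libraries (adjusted p = 0.195 and 0.0624 without NS DMSO replicates 1 and 2, 0.0997 and 0.0874 without NS Dox-4OHT replicates 1 and 2) and without the filter (0.0514). In knockdown cells it was lost without knockdown DMSO replicate 2 (0.0638), without knockdown Dox-4OHT replicate 1 (0.0751) and with DESeq2 (0.0871). The knockdown effect was 0.79 under DMSO (95% interval -0.83 to 2.40, adjusted p = 0.393) and 0.95 with Dox-4OHT (0.06 to 1.84, adjusted p = 0.0609), neither called.

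**Figure D2:**
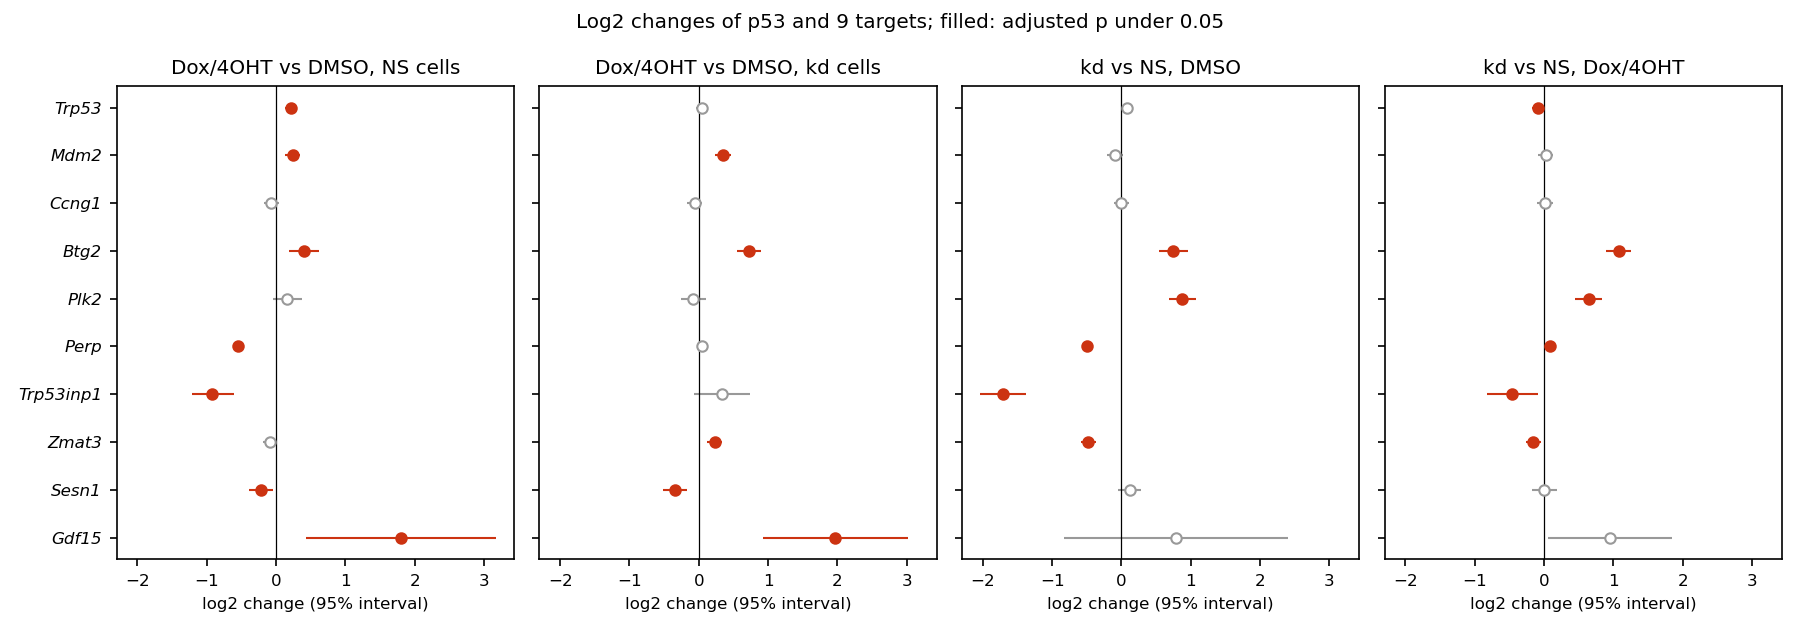
Log2 change of each of the 10 genes in the 4 comparisons, with 95% intervals from the fitted model; filled red points passed an adjusted p of 0.05 and open grey points did not. Btg2 lies to the right of 0 in all 4 panels, Trp53inp1 reaches -1.71 with the knockdown under DMSO, and Gdf15 has the widest intervals.

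Counted over the 10 genes, the Ras response in NS cells called 4 higher and 3 lower, where the table as a whole had 20.8% of genes higher and 21.3% lower (42.1% called in all). With DESeq2 the count was 3 higher and 2 lower, where 3265 of 12538 genes were called. The count also became smaller when any one of the libraries compared was left out. In knockdown cells the Ras response called 4 higher and 1 lower (19.5% and 16.6% of all genes, 36.1% in all). The knockdown called 2 higher and 3 lower under DMSO (30.9% and 31.0% of all genes, 61.9% in all) and 3 higher and 3 lower with Dox-4OHT (30.5% and 29.7%, 60.2% in all). Apart from Gdf15 the counts were 3 higher and 3 lower of 9 for the Ras response in NS cells and 3 and 1 of 9 in knockdown cells. Their median log2 changes, -0.07 and 0.05, stood beside medians of 0.00 for all genes in both comparisons. For the knockdown the medians of the 9 were 0.00 under DMSO and 0.01 with Dox-4OHT, against 0.00 and -0.01 for all genes. The libraries of the groups did not overlap for 8 of the 10 genes in the Ras response of NS cells (70.2% of all genes) and for 6 in that of knockdown cells (67.1%). For the knockdown effect these were 6 under DMSO (81.2% of all genes) and 7 with Dox-4OHT (78.7%). Gdf15, with the limit given above, is among those of the Ras response in knockdown cells and of the knockdown with Dox-4OHT. The shares called are thus close to those of the table for the knockdown effects, and in no comparison did the 10 genes move in 1 direction. With Dox-4OHT the count of 6 fell to 3 with DESeq2 and without NS Dox-4OHT replicate 1 or knockdown Dox-4OHT replicate 1, and in the Ras response of knockdown cells DESeq2 called 3. The difference between the Ras responses was called in 4 of the 10, Perp, Trp53inp1 and Zmat3 with a higher response in knockdown cells and Trp53 with a lower one (20.2% and 18.0% of all genes, 38.2% in all).

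**Figure D3:**
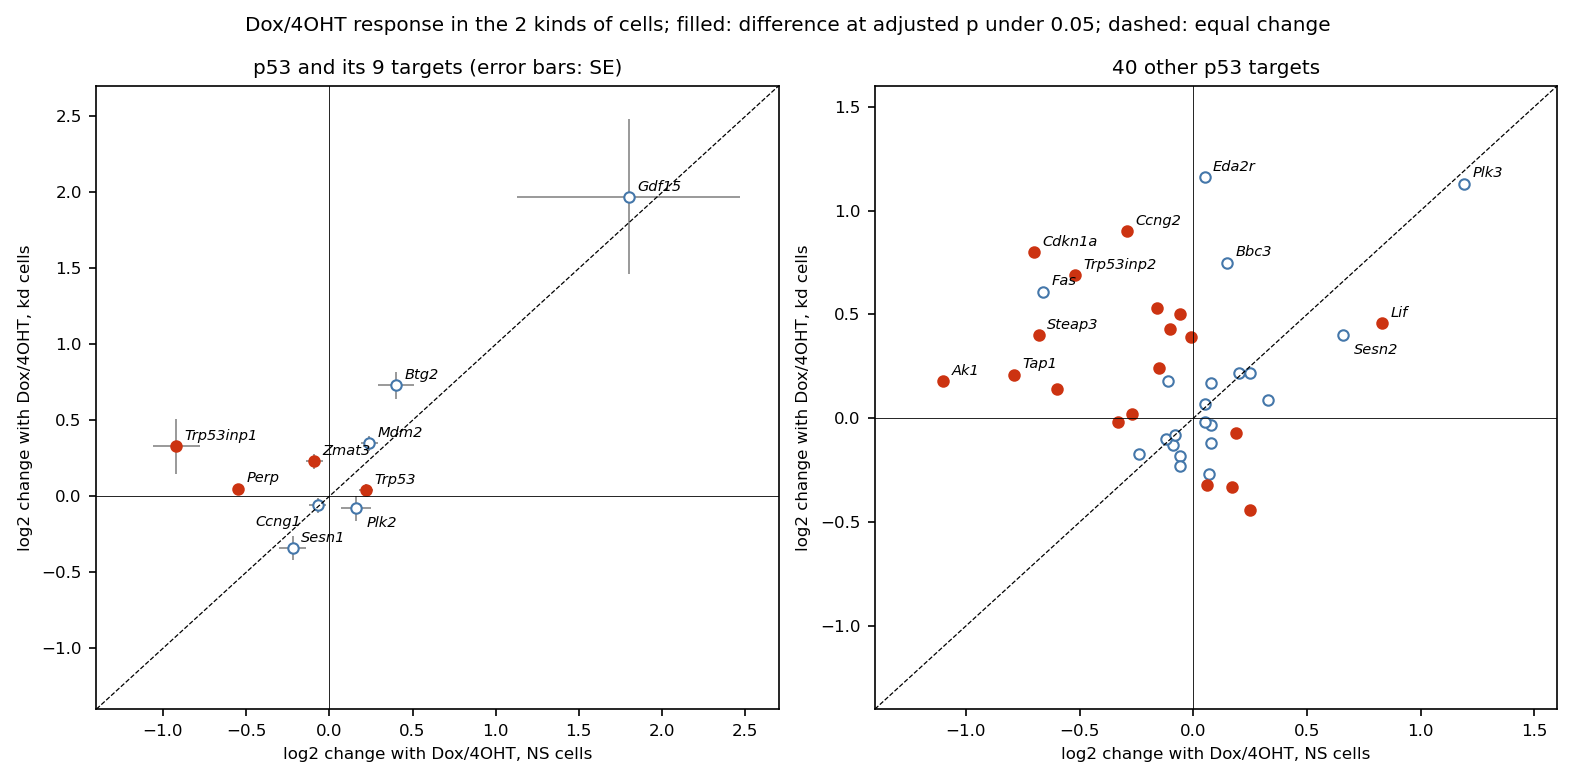
Log2 change with Dox and 4OHT in NS cells (horizontal) against that in knockdown cells (vertical), for the 10 genes with standard errors on the left and for 40 other p53 targets on the right, the dashed line marking equal change. Filled red points differ between the cells at an adjusted p of 0.05; Cdkn1a (-0.70 and 0.80) and Ccng2 (-0.29 and 0.90) lie at the upper left, Plk3 (1.19 and 1.13) near the line.

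Another 41 known p53 targets were listed by role, of which 40 were tested. With Ras in NS cells 5 rose and 9 fell (20.8% and 21.3% of all genes), and in knockdown cells 15 rose and 6 fell (19.5% and 16.6% of all genes). Their medians were -0.06 and 0.17, against 0.00 for all genes in both. By DESeq2 the count in knockdown cells was 12 higher and 1 lower, where it called 2628 of 12538 genes, 60.2% of them higher. The responses differed for 19 of the 40, 14 with a higher response in knockdown cells and 5 with a lower one (11 and 2 by DESeq2). By edgeR 20.2% and 18.0% of all genes were called, and by DESeq2 2828 of 12538 in either direction. The knockdown called 14 higher and 13 lower under DMSO (8 and 12 by DESeq2) and 18 higher and 10 lower with Dox-4OHT. In either direction 61.9% and 60.2% of all genes were called, and by DESeq2 5922 of 12538 under DMSO. The 14 higher under DMSO include Fas and Eda2r, which were tested through the knockdown libraries alone, so a higher level there was built in. The same limit holds for both genes with Dox-4OHT. Lower in NS cells and higher in knockdown cells were 5 of the 40, Cdkn1a, Ccng2, Sfn, Steap3 and Trp53inp2, a pattern that 4.26% of all genes tested showed. The opposite, held by 4.16% of all genes, was found in 1, Rps27l, whose NS call was lost with DESeq2 (0.227) and when NS DMSO replicate 1 (0.235) or, separately, NS Dox-4OHT replicate 2 (0.166) was omitted.

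The 7 cell cycle arrest targets all passed the test for the Ras response in knockdown cells, 6 higher and 1 lower, and for the knockdown effect with Dox-4OHT, again 6 and 1. Of all genes 36.1% and 60.2% were called there. Their medians were 0.53 and 0.84, beside 0.00 and -0.01 for all genes. In NS cells 1 rose and 3 fell with Ras, against 42.1% of all genes called. Cdkn1a, which encodes the CDK inhibitor p21 and is the main arrest target of p53, was at 51.8 and 49.3 CPM in DMSO-treated NS cells and 30.3 and 31.9 CPM with Dox-4OHT. In knockdown cells it went the other way, from 42.2 and 36.8 CPM to 69.8 and 67.5 CPM. Its 4 groups did not overlap. The changes were -0.70 ± 0.07 among NS cells (adjusted p = 4.47e-09) and 0.80 ± 0.06 among knockdown cells (adjusted p = 1.26e-10), a difference of 1.51 ± 0.10 (adjusted p = 2.07e-12). Under DMSO the knockdown cells had less Cdkn1a (-0.36 ± 0.07, adjusted p = 4.04e-05) and with Dox-4OHT more (1.15 ± 0.07, adjusted p = 4.16e-14).

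Ccng2, the cyclin G2 gene, changed in the same directions, -0.29 ± 0.09 in NS and 0.90 ± 0.08 in knockdown cells, with a difference of 1.19 ± 0.12 (adjusted p = 1.41e-08). Its fall in NS cells was lost with DESeq2 (0.0734) and when NS DMSO replicate 1 (0.0647) or, separately, NS Dox-4OHT replicate 2 (0.065) was omitted. Sfn, the 14-3-3 sigma gene of epithelial cells, was named after its values were seen. It fell from 404 and 415 CPM to 259 and 283 CPM in NS cells and rose from 446 and 450 CPM to 494 and 492 CPM in knockdown cells (difference 0.74 ± 0.05, adjusted p = 1.69e-11). Plk3, a polo-like kinase like Plk2, rose with Ras by 1.19 ± 0.12 in NS and 1.13 ± 0.08 in knockdown cells (difference -0.06, 95% interval -0.36 to 0.23, adjusted p = 0.763). It was also higher in knockdown cells, by 1.68 ± 0.11 under DMSO and 1.61 ± 0.08 with Dox-4OHT. Psrc1, a mitotic spindle gene, was the 1 arrest target that was lower both with Ras in knockdown cells and with the knockdown under Dox-4OHT, the latter by -1.44 ± 0.13 (adjusted p = 1.63e-10). Its Ras response in knockdown cells, -0.44 ± 0.15 (adjusted p = 0.0205), was lost with DESeq2 (0.13) and without any one of the knockdown libraries (0.0772 and 0.0641 without DMSO replicates 1 and 2, 0.101 and 0.0649 without Dox-4OHT replicates 1 and 2).

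Among 12 apoptosis targets 1 rose and 1 fell with Ras among the NS libraries and 4 rose and 1 fell in knockdown cells (42.1% and 36.1% of all genes called). The knockdown called 6 higher and 1 lower under DMSO, near the 61.9% of all genes, and 7 higher and 2 lower with Dox-4OHT (60.2% of all genes). Fas and Eda2r are among the 6 under DMSO. All NS libraries of both were below the 0.722 CPM that the filter on low counts asks for. A higher level in knockdown cells was thus built in for them, and the same limit holds with Dox-4OHT. Pmaip1, which encodes the BH3-only protein NOXA, was at 59.5 and 56.7 CPM in DMSO-treated NS cells and 57.4 and 54.3 CPM with Dox-4OHT. The knockdown cells had 82.7 and 85.6 CPM under DMSO and 120 and 118 CPM with Dox-4OHT, above all NS libraries. Under Dox-4OHT its knockdown effect was 1.09 ± 0.05 (adjusted p = 3.05e-16), and its Ras responses differed by 0.56 ± 0.07 (adjusted p = 9.76e-07). Of the 7 targets of DNA repair and nucleotide supply 1 was called in each Ras response, both times lower, under the shares of all genes just given. The knockdown called 1 higher and 3 lower of these 7 under DMSO and 0 higher and 3 lower with Dox-4OHT (61.9% and 60.2% of all genes).

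Of the 14 tested targets of metabolism and other roles, 3 rose and 4 fell with Ras among the NS libraries and 5 rose and 3 fell in knockdown cells, where 42.1% and 36.1% of all genes were called. Ak1, an adenylate kinase gene, had the largest fall of the other targets in NS cells (-1.10 ± 0.07, adjusted p = 1.49e-13) and with the knockdown under DMSO (-1.78 ± 0.07, adjusted p = 7.81e-18). Its NS DMSO libraries, at 68.0 and 63.0 CPM, enter both, and the other 6 were at 18.3 to 30.9 CPM. Trp53inp2, a relative of Trp53inp1 that acts in autophagy, went from 244 and 231 to 169 and 161 CPM with Ras in NS cells and from 143 and 130 to 234 and 208 CPM among knockdown libraries. The difference was 1.22 ± 0.08 (adjusted p = 6.37e-08). Steap3, a ferrireductase gene, changed by -0.68 ± 0.07 in NS and 0.40 ± 0.08 in knockdown cells (difference 1.08 ± 0.10, adjusted p = 5.23e-09). Sesn2, a sestrin gene that ATF4 also induces, rose by 0.66 ± 0.11 in NS cells (adjusted p = 1.51e-05), where Sesn1 had fallen. The cytokine gene Lif rose by 0.83 ± 0.10 in NS cells, and Tap1, a peptide transporter gene, fell by 0.79 on the log2 scale.

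**Figure D4:**
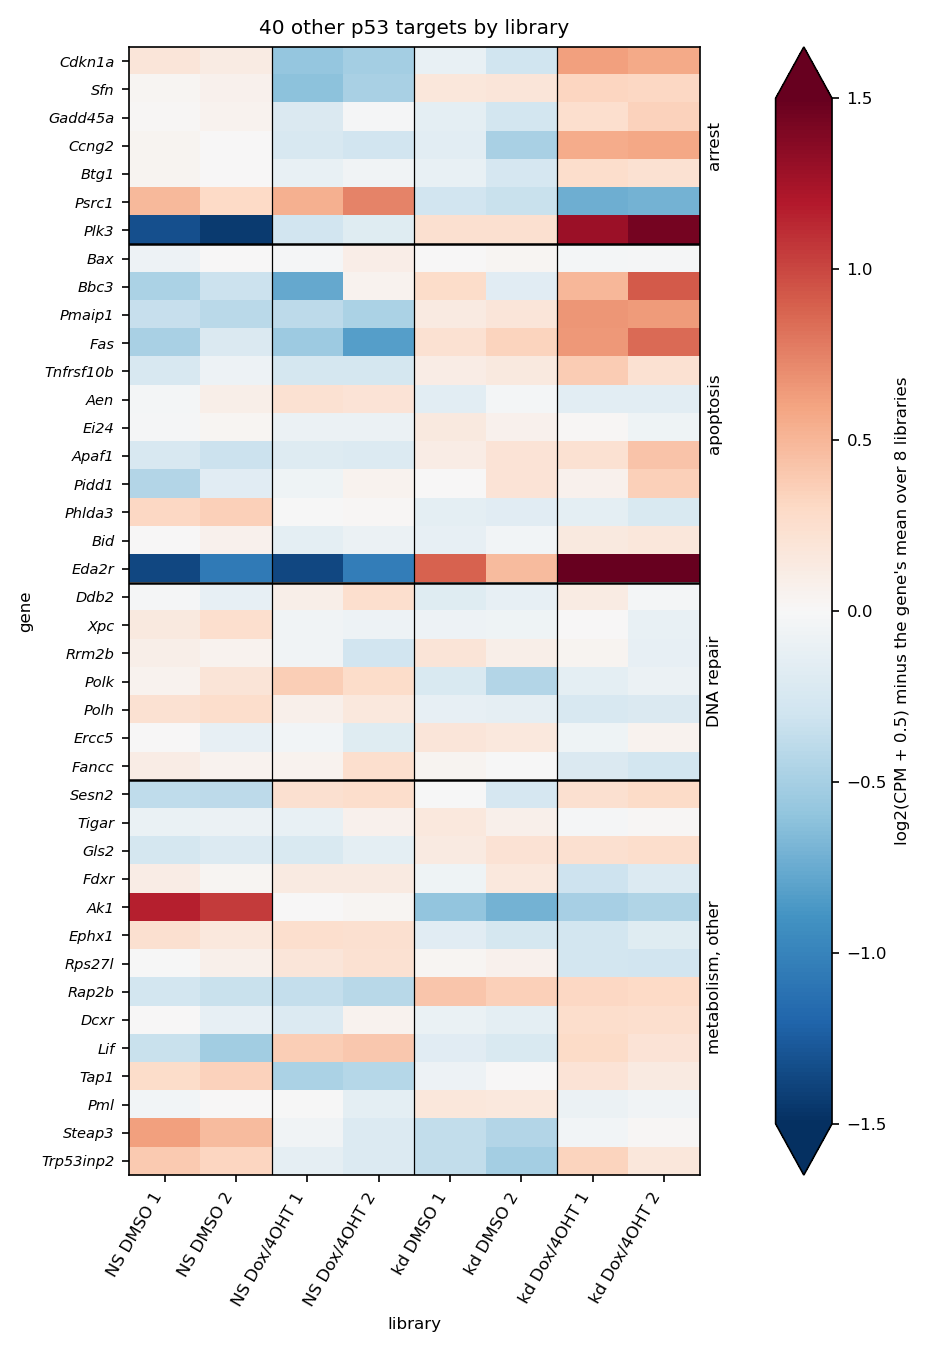
Level of 40 other p53 targets in each of the 8 libraries, as log2(CPM + 0.5) minus the gene's mean over the libraries, with rows grouped by role and the colour scale ending at -1.5 and 1.5. In the arrest rows the knockdown Dox-4OHT libraries are red for every gene except Psrc1, and the DNA repair rows are paler than those of Plk3, Eda2r and Ak1.

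Of the 17 listed regulators of p53, 7 rose and 2 fell with Ras among the NS libraries, and 9 were higher and 2 lower with the knockdown under DMSO, 2 comparisons that share the NS DMSO libraries. Of all genes 42.1% and 61.9% were called in these. In knockdown cells with Ras 1 rose and 5 fell (36.1% of all genes called), a count that became 1 and 2 without knockdown DMSO replicate 2. The knockdown with Dox-4OHT called 3 higher and 4 lower (60.2% of all genes called), which became 1 and 3 without knockdown Dox-4OHT replicate 1. The responses differed for 10, of which 8 were lower in knockdown cells (5 of 6 by DESeq2). For this difference edgeR called 38.2% of all genes, and DESeq2 called 2828 of 12538. Chek1, the checkpoint kinase gene, which is also a proliferation gene, went from 31.1 and 32.5 to 44.2 and 42.9 CPM in NS cells and from 43.9 and 48.1 to 36.4 and 34.8 CPM among knockdown libraries. Its responses differed by -0.82 ± 0.10 (adjusted p = 1.33e-07). Twist1, whose product inhibits p53, rose by 0.85 ± 0.10 with the knockdown under DMSO (adjusted p = 5.14e-08), as did Rpl5, a ribosomal protein gene whose product binds MDM2 (0.76 ± 0.08, adjusted p = 4.04e-09). Atr, the replication stress kinase gene, changed by -0.37 ± 0.07 with Ras in knockdown cells (adjusted p = 5.75e-05).

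Cdkn2a, Mdm4 and Trp63 were named after their values were seen. Cdkn2a, whose locus encodes p16 and the MDM2 inhibitor ARF, which counts per gene cannot separate, was at 113 and 113 CPM in DMSO-treated NS cells and 111 and 114 CPM with Dox-4OHT. In knockdown cells it rose from 127 and 127 CPM to 150 and 149 CPM (0.24 ± 0.04, adjusted p = 4.51e-05), and the responses differed by 0.25 ± 0.06 (adjusted p = 0.00152). Mdm4, the partner of Mdm2 in restraining p53, was higher in DMSO-treated knockdown cells (0.50 ± 0.07, adjusted p = 9.62e-07). Of the p53 family, Trp63, the p63 gene that marks basal keratinocytes, rose with Ras in NS cells (0.23 ± 0.03, adjusted p = 3.95e-06), with a change of 0.01 in knockdown cells (95% interval -0.06 to 0.08) and a difference of -0.22 ± 0.05 (adjusted p = 0.000642). Trp73, the p73 gene, fell with Ras in both, with changes of -0.46 ± 0.07 (adjusted p = 5.99e-06) and -0.64 ± 0.07 (adjusted p = 2.85e-08).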

How the data were processed

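The authors aligned reads with TopHat to mm9 and counted them with HOMER at the isoform level, and DESeq2 is also named, as the labels' design text and the submitters' processing notes record. Their versions, the strand setting and the treatment of shared reads are not stated there. The authors deposited estimated counts per gene, not normalized (24909 entries, all multiples of 0.5). Of 2 repeated symbols the entry with more counts was kept, and values were rounded to whole numbers for testing. The deposited gene length (another measure, in bases) gave CPM per kb.

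Genes were tested with edgeR 4.0.16 (R 4.3.3; filterByExpr, TMM, robust quasi-likelihood F test, 8 libraries, 4 group means, 4 residual degrees of freedom), two-sided, with Benjamini-Hochberg adjustment across the 12538 genes that passed the filter. Errors are standard errors of that model; 95% intervals use its t distribution. The 10 genes and the lists were chosen with earlier results of these data known. Outside the 10, the rule names Cdkn1a, Tgfbr1 and, per comparison, up to 3 rises and 3 falls of the other p53 lists past the threshold with a mean of at least 5 CPM. Alternatives were RLE factors, DESeq2 1.42.0, no filter, a replicate block, only the libraries compared, no Rn45s entry, and each library left out. Promoters are from RefSeq, and symbols were matched as deposited or by RefSeq synonym. Some single-gene results that these rules call for are not reported here.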

Additional observations from a re-analysis of the deposited data

Results flagged for a closer look

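In 4 of the 10 genes the Ras response differed between knockdown and NS cells by the test of the difference itself (edgeR, adjusted p = 0.05 as threshold), a share near the 38.2% of all genes called. For Perp the response in knockdown cells was 0.59 higher on the log2 scale, for Trp53inp1 1.25 higher and for Zmat3 0.32 higher, and these 3 also passed with DESeq2 and without any single library. For Trp53 it differed by -0.18, a call that DESeq2 and 3 of the single-library omissions did not make. In Perp, Trp53inp1 and Zmat3 both NS DMSO libraries were the highest of the 8, and the same libraries serve as the reference of the Ras response in NS cells.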

How the results depend on the processing

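Over the 10 genes and 5 comparisons, 633 of 686 alternative values kept their side of the threshold, 34 lost a call and 19 gained one. A reversal of direction in which either value was called occurred 0 times. Over the other named genes, alternatives run after seeing the data gave 1520 of 1586, 49, 17 and 0. In both sets a change of sign with neither value called was counted as kept, so direction was not followed there. With DESeq2, the genes called of the 10 numbered 5 for the Ras response in NS cells. They numbered 3 for the Ras response in knockdown cells and 3 for the knockdown effect under Dox and 4OHT. With DESeq2 the other p53 targets numbered 13 for the Ras response in knockdown cells, and the regulators 3 for the knockdown effect under Dox and 4OHT and 6 for the difference of Ras responses. Leaving out single libraries, the count of the 10 ran from 3 to 6 for the knockdown effect under Dox and 4OHT, and that of the regulators from 3 to 7 for the Ras response in knockdown cells and from 4 to 8 for the knockdown effect under Dox and 4OHT. The cause was not tested. Over all genes DESeq2 called 3265 against 5281 in the Ras response of NS cells, 2628 against 4531 in that of knockdown cells and 2828 against 4791 for the difference. For the knockdown effect it called 5922 against 7763 under DMSO and 5834 against 7542 under Dox and 4OHT. The replicate numbers were shared by all groups, and deviations of same-numbered libraries had correlations of -0.0368 to 0.0572 over the genes tested. A batch or culture shared by number that acts on part of the genes could go unseen in these values. The labels do not say what the number means. With the replicate block the difference of Ras responses was called for 6 of the 10 in place of 4, the added genes being Plk2 and Btg2. Counting error limits Gdf15, which had 5.5 counts in all in NS cells under DMSO.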

Other observations

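Eda2r, a p53 target that encodes a death domain receptor of the TNF family, was picked after its values were seen. NS cells had 0.311 and 0.497 CPM of it with DMSO and 0.309 and 0.513 CPM with Dox-4OHT, and knockdown cells 3.36 and 2.39 CPM and 5.60 and 7.35 CPM. These were 4 to 7 counts in the NS libraries and 34.5 to 93.5 in the knockdown libraries. All 4 NS libraries were below the 0.722 CPM that the filter on low counts asks for, so Eda2r was tested through the knockdown groups alone. A higher level there was built in, and no test of its knockdown effect is given here. Its Ras response on the log2 scale was 1.16 ± 0.21 in knockdown cells (adjusted p = 9.57e-05 by edgeR) and 0.05 in NS cells (95% interval -1.21 to 1.32), and the difference of 1.11 was not called (95% interval -0.26 to 2.48, adjusted p = 0.201).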
